A study of Mus musculus with 2 samples.

Results

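Pericytes and vascular smooth muscle cells, together the mural cells of blood vessels, were picked out of single-cell libraries of mouse whole brain by their transcripts. A barcode counted as a mural cell when it had at least 1000 UMIs (unique molecular identifiers, 1 for each captured transcript), at least 500 genes and at most 10% mitochondrial UMIs. It also needed at least 10 UMIs summed over 8 genes, which were Rgs5, Kcnj8, Abcc9, Higd1b, Ndufa4l2, Acta2, Tagln and Myh11. It could hold at most 4 UMIs of the endothelial genes Cldn5, Cdh5 and Pecam1 together and at most 6 of the fibroblast genes Dcn, Lum and Col1a1 together. This gave 107 mural cells among 11312 barcodes that passed the depth and mitochondrial limits.

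Both libraries came from dissociated whole brain of APP-KI mice aged 6 months. APP-KI carries a knock-in at the App gene and models Alzheimer's disease, and the control library carries it too. One library was Fit2-WT and 1 was Fit2-Mut, in which Fit2 was disrupted in macrophages, so the mural cells themselves were not the named target of the mutation. How many animals were pooled and which promoter restricts the mutation to macrophages are not given in the sources used here. With 1 library a genotype no test of a difference is possible. Ratios between the libraries are Fit2-Mut over Fit2-WT, and those in parentheses beside them are exact 95% intervals, which cover counting error only and are too narrow where few cells hold many of a gene's UMIs.

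Mural cells wrap the outside of the endothelial tube. Smooth muscle cells ring arteries and arterioles and set the vessel's width with an actin and myosin apparatus, while pericytes sit singly on capillaries inside the basement membrane and take part in barrier function and in the control of capillary flow. Brain pericytes are known for a potassium channel made of Kcnj8 and Abcc9, for the matrix protein vitronectin (Vtn) and for a set of transporters of small solutes. In models of amyloid disease the vessel wall is also of interest because amyloid can collect around arterioles.

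The Fit2-WT library held 57 mural cells of 5333 passing barcodes, a share of 1.07% (exact Clopper-Pearson 95% interval 0.810 to 1.38%). The Fit2-Mut library held 50 of 5979, or 0.836% (0.621 to 1.10%). The ratio of the shares was 0.782 (0.524 to 1.16), and relative to the 439 and 364 endothelial cells it was 1.06 (0.709 to 1.57), so neither ratio was away from 1 beyond counting error. The median mural cell had 5904 UMIs in Fit2-WT, against 4045 in the other library. The libraries shared 10 barcodes among passing cells, none of them a mural cell.

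The limits on other vessel cells removed 10 barcodes with endothelial and 1 with fibroblast transcripts from Fit2-WT, against 5 and 0 in the other library. Just inside the limit of 10 UMIs lay 4 and 9 mural cells, with sums of 10 to 14. Just outside it, with sums of 6 to 9, lay 2 and 4 barcodes that met the other limits. Of the mural cells just inside, 3 and 2 held markers of another class, as did 1 and 4 barcodes just outside. In 4658 and 5349 passing barcodes none of the 8 transcripts was found.

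The rule has no limit on ependymal, choroid plexus, glial or blood transcripts, and 13 mural cells from Fit2-WT and 11 from the other library held at least 20 UMIs of another class's markers. These mixed cells were deep, and they carried 48.7% of all mural UMIs in the first library and 52.4% in the second. Ependymal markers (Foxj1, Ccdc153, Tmem212) led in 7 and 5 of them. In those 12 barcodes Myh11 and Rgs5 were at 0 in each, and the 8-gene sum of 10 to 27 UMIs (Fit2-WT) or 10 to 43 (Fit2-Mut) was nearly all Acta2 and Tagln, so the markers go against their label as mural cells. The others held markers of choroid plexus (2 and 2), astrocyte (1 and 2), red blood cell (1 in Fit2-WT), T cell (1 in Fit2-WT), oligodendrocyte (1 in Fit2-WT), microglia (1 in Fit2-Mut) and fibroblast (1 in Fit2-Mut). Scrublet called 2 mural cells in each library as doublets, all of them mixed.

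The remaining 44 Fit2-WT and 39 Fit2-Mut cells are called unmixed here, by a threshold of 20 UMIs chosen after seeing the data. In them ependymal, neuronal and T cell markers were at or near 0. Transcripts of Ttr, the choroid plexus transport protein that is abundant in free RNA, were present in nearly every unmixed cell, with 147 UMIs in 43 Fit2-WT cells. Free RNA was put at 1.46% and 2.38% of the UMIs of the respective libraries. The comparisons of the ranges, and those of the libraries within a range, use the unmixed cells; values over all mural cells are named as such.

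**Figure D1:**
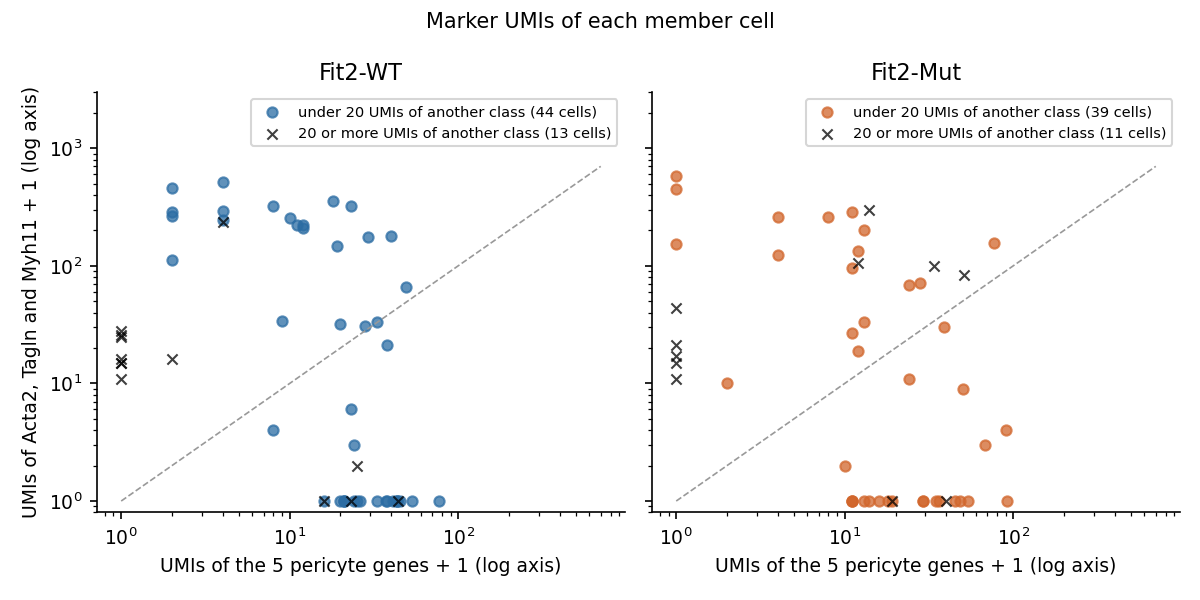
Each point is 1 mural cell, with summed UMIs of Rgs5, Kcnj8, Abcc9, Higd1b and Ndufa4l2 plus 1 on the x axis and of Acta2, Tagln and Myh11 plus 1 on the y axis, both logarithmic, in Fit2-WT (left, 57 cells) and Fit2-Mut (right, 50 cells). Crosses are the 13 and 11 mixed cells, the dashed line marks equal sums, and few cells lie near it.

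Genes outside the rule also set the selected cells apart from all other passing barcodes. The genes were ranked by the smaller of the libraries' ratios, with a UMI in at least 30% of mural cells of each library. That the leaders are high in both libraries is therefore set by the ranking. As a description, since the cells were selected on their transcripts, the 30 genes with the largest ratio of mural to other level included 22 that the rule did not use. Over all mural cells Carmn, a long noncoding RNA of smooth muscle, had 83 UMIs in 32 Fit2-WT cells and 77 UMIs in 34 Fit2-Mut cells, which is 1032 and 1167 times its level in other cells. In the unmixed cells it had 73 UMIs in 27 and 67 in 28 cells. Des, which encodes the muscle intermediate filament desmin, was 901 and 1102 times higher. Myl9, the regulatory light chain of smooth muscle myosin, was found in 53 of 57 and 45 of 50 cells at 981 and 865 times the level elsewhere, and in 43 of 44 and 35 of 39 unmixed cells.

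The same leaders held genes of several other roles. Slc38a11, a solute carrier of amino acids, was 889 and 936 times higher in mural cells. Tbx2, a transcription factor, was 239 and 291 times higher. Foxs1, another, had 33 and 28 UMIs in mural cells and 7 and 3 in all other cells. Gja4, a gap junction protein of vessels, Cox4i2, a respiratory chain subunit, Il34, a ligand of the macrophage receptor Csf1r, Pde3a, a cyclic nucleotide phosphodiesterase, and Pln, the phospholamban that restrains the calcium pump, were each at least 128.5 times higher in both libraries.

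Few mural cells held similar sums of Acta2, Tagln and Myh11 and of the other genes of the rule, as the plot of the sums shows. The share of Acta2, Tagln and Myh11 in the 8-gene sum was 0 in 21 Fit2-WT and 18 Fit2-Mut cells, and between 0.3 and 0.7 in only 6 and 5. Cells at 0.5 or above are called the contractile range and the others the pericyte range, which are ranges of a score and not cell types. The contractile range held 31 of 57 cells in Fit2-WT and 26 of 50 in Fit2-Mut, a ratio of shares of 0.956 (0.545 to 1.66). Of the unmixed cells, 22 and 22 lay in the pericyte range and 22 and 17 in the contractile range.

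Unmixed contractile cells were deeper, with medians of 6204.5 (Fit2-WT) and 4513 UMIs (Fit2-Mut) against 2591.5 and 2420 in the pericyte range. Their median mitochondrial share was also higher, at 4.09 and 5.0% against 2.97 and 3.71%. Kcnj8 and Abcc9 were nearly confined to the pericyte range in these libraries: Abcc9 had 104 and 91 UMIs there and 1 and 0 in the contractile range, and Kcnj8 66 and 41 against 4 and 0. Rgs5, a regulator of G protein signalling, was found in both ranges, at 5703.5 CPM (UMIs of the gene scaled by the summed UMIs of the set, as in the usual CPM unit) in Fit2-WT pericyte range cells and 1542.8 CPM in the contractile range, and at 7526.1 and 1781.4 CPM in Fit2-Mut. Without thinning, Higd1b and Ndufa4l2 were also found in contractile range cells, in 68.2% and 54.5% of those of Fit2-WT and each in 70.6% of those of Fit2-Mut. These values describe the cut and are no test of it.

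**Figure D2:**
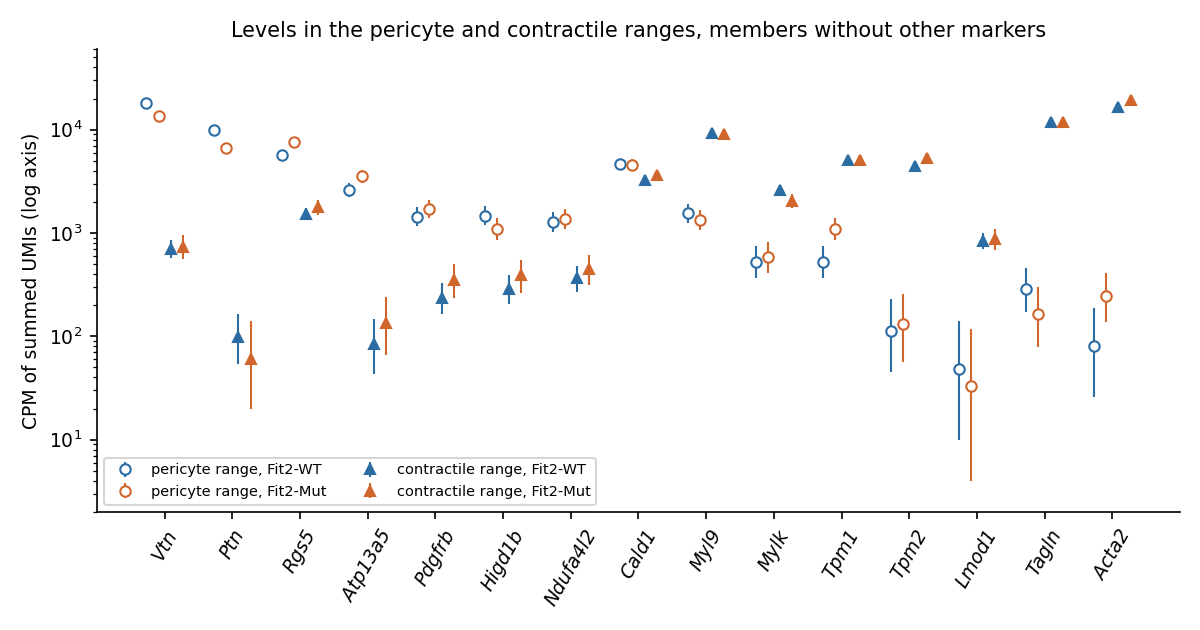
Level in CPM on a logarithmic axis, with Poisson 95% intervals as bars, of 15 genes in unmixed mural cells by range and library (22 and 22 pericyte range cells, 22 and 17 contractile range cells). The libraries lie close together next to the distance between ranges, for example for Vtn, Ptn and Tpm2.

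The genes that the rule did not use separated along the same line, again as a description of cells grouped by their own transcripts. Of 1242 genes with at least 50 UMIs in the unmixed cells, 354 (28.5%) were at least 1.5-fold higher in the contractile range in both libraries and 240 (19.3%) at least 1.5-fold lower. Of the contractile apparatus list, 16 of 17 measured genes were higher and 0 lower in the contractile range. Of the pericyte identity list, 9 of 12 were lower there and 2 higher. The median log2 ratio of the contractile list was 3.19 in Fit2-WT and 3.47 in Fit2-Mut (a count of 0 set at 3), and that of the pericyte identity list -1.86 and -1.22. The exceptions were Cald1, the actin-binding protein caldesmon, at 0.696 and 0.790 times the pericyte range level, and on the pericyte list the tetraspanin Cd9 (from 2 to 82 UMIs and from 2 to 35) and the adhesion molecule Mcam (2.61 and 1.72 times), both higher in the contractile range.

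At the contractile end, Tpm2, the beta chain of tropomyosin, had 7 UMIs in the pericyte range and 636 in the contractile range of Fit2-WT, and 8 and 441 in Fit2-Mut. On the CPM scale that is 39.6 and 40.7 times more. Csrp1, a LIM protein of actin bundles, went from 0 to 157 UMIs in Fit2-WT and from 1 to 107 in the other library, and Pln from 1 to 157 and from 0 to 134. Vim (the intermediate filament vimentin), Dstn (an actin-severing protein), Sorbs2, Palld, Lmod1 (actin filament nucleation), Sncg, Crip1, Csrp2 and Mustn1 were also at this end, with at most 8 UMIs each in the Fit2-WT pericyte range apart from Crip1 (29 there, 1345 in the contractile range), as were Fos, Junb and Klf2.

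At the pericyte end, Ptn, the secreted growth factor pleiotrophin, had 618 UMIs in the pericyte range and 14 in the contractile range of Fit2-WT, and 407 and 5 in Fit2-Mut. Vtn had 1136 UMIs against 101 (Fit2-WT) and 833 against 61 (Fit2-Mut), so its CPM in the contractile range was 0.0387 and 0.0540 times that in the pericyte range. Grm3, a glutamate receptor, had 76 against 1 and 83 against 0 UMIs. The other leaders there were Atp13a5, a P-type ATPase, Colec12 (a scavenger receptor), Art3, Pde8b (a cyclic AMP phosphodiesterase), Plxdc1 and Plxdc2, Pdzd2, Slc6a20a (a proline transporter), Grm7, Ifitm1, Cdh2 (N-cadherin) and Gng2.

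Some paralogs of the respiratory chain differed in their balance between the ranges. Of 6 measured genes of the paralog list outside the rule, 3 were higher in the contractile range in both libraries and 1 lower. Of all genes, 28.5% were higher and 19.3% lower. Ndufa4, the broadly expressed form, had 3 UMIs in the pericyte and 68 in the contractile range of Fit2-WT, and 1 and 46 in Fit2-Mut. Its paralog Ndufa4l2 had 80 and 52 UMIs, and 83 and 37. Ndufa4l2 is a gene of the rule and of the score, so its order between the ranges is partly set by the cut. Cox4i1 and Cox4i2 showed the same order: Cox4i1 went from 32 UMIs in the pericyte to 178 in the contractile range in Fit2-WT and from 24 to 113 in Fit2-Mut, while Cox4i2 went from 40 to 22 and from 26 to 16. Of the other nuclear oxidative phosphorylation genes, 18 of 28 were higher in the contractile range in both libraries and 0 lower, with median log2 ratios of 0.89 and 1.05 against 0.16 and 0.21 over all genes.

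Signalling and matrix genes were less one-sided, to be read beside 28.5% of all genes higher and 19.3% lower in the contractile range. Notch signalling genes were lower in the contractile range in 4 of 8 cases and higher in 1, and transcription factors of mural cells lower in 4 of 13 and higher in 1. Basement membrane and matrix genes were lower in 6 of 16 and higher in 4. Ion channels and calcium handling genes divided 3 and 3 of 9. Immediate early genes were higher in the contractile range in 12 of 15 cases and lower in none, with median log2 ratios of 3.99 and 3.59.

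**Figure D3:**
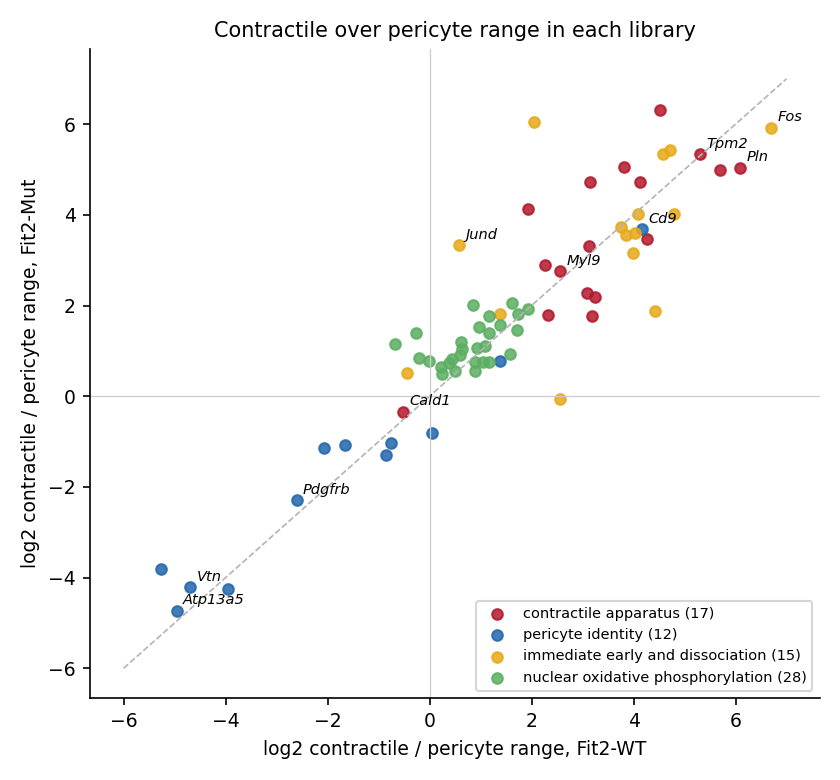
Log2 ratio of the contractile to the pericyte range in Fit2-WT (x axis) against Fit2-Mut (y axis) for unmixed cells, 1 point a gene, for the contractile apparatus (17 genes), pericyte identity (12), immediate early (15) and nuclear oxidative phosphorylation (28) lists, with a gene at 0 set at 3 counts. Contractile genes other than Cald1 and most immediate early genes lie at the upper right, and most pericyte identity genes, with Cald1, at the lower left.

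When each cell was thinned to 1000 UMIs, Vtn, which the rule did not use, was found in 22 of 22 and 21 of 22 pericyte range cells, against 1.37% and 4.12% of endothelial cells at median depths of 4071 and 4297.5 UMIs. In the contractile range Vtn was found in 31.8% (Fit2-WT) and 52.9% (Fit2-Mut) of cells, above the endothelial shares. Without thinning these shares were 59.1% and 64.7%, next to 5.92% and 6.87% of endothelial cells.

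Promoters of a few genes are shown as examples because smooth muscle genes are known to be driven by serum response factor, which binds the CArG box. The plan named Acta2, Tagln, Myh11 and Cnn1, and Tagln and Myh11 have no RefSeq promoter entry. Cnn1 is not shown. Myl9, Myl6 and Rgs5 were taken outside the plan, and Myl9 and Myl6 are among the 3 contractile apparatus genes with an exact match. These windows are therefore no comparison of the contractile and pericyte ends. The RefSeq sequences (GRCm38.p6) cover the 250 bases before the annotated start of transcription. Capitals mark each match to the CArG box, found on both strands with up to 1 mismatch. Myl6 has 2 windows, and the one with the most matches is shown. The windows are chr19:34255374-34255623 on the minus strand for Acta2, chr2:156775214-156775463 on the plus strand for Myl9, chr10:128493010-128493259 on the minus strand for Myl6, the essential light chain of myosin, and chr1:169655251-169655500 on the plus strand for Rgs5.
Acta2: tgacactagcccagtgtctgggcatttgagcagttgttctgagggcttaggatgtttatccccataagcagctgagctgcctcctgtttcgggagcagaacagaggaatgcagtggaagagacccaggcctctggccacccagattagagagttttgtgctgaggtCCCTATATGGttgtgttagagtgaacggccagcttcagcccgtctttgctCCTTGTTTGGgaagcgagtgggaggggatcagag
Myl9: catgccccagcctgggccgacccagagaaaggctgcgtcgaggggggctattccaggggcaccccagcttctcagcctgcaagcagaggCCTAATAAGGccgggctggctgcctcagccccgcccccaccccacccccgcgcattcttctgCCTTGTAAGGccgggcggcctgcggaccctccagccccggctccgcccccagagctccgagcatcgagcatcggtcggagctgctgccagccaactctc
Myl6: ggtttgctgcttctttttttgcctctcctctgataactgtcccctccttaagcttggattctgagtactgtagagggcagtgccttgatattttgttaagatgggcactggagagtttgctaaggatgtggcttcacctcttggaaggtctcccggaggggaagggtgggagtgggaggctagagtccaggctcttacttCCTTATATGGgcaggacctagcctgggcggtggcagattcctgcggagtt
Rgs5: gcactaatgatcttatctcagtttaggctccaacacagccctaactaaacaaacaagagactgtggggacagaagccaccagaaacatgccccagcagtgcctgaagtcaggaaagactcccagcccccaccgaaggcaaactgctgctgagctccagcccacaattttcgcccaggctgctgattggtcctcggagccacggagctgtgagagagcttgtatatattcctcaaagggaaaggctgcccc

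The matches began 84 and 34 bases before the start in Acta2 (1 mismatch each), 161 (exact) and 99 (1 mismatch) bases before it in Myl9, and 50 bases before it (exact) in Myl6, while the Rgs5 window had none. Over windows of 300 bases, from 250 before to 50 after the start, an exact match was present in 3 of the 21 contractile apparatus genes with an entry (Myl9, Myl6 and Srf) and in 1.81% of all genes. With up to 1 mismatch it was present in 9 of 21, in 2 of 10 pericyte identity genes and in 23.8% of all genes. A match is a stretch of letters and not a measured binding site, and no match says only that these letters are not in this window. Myl9, with the exact match, had 1319 UMIs in 22 contractile range cells of Fit2-WT and 750 in 16 of Fit2-Mut.

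Fit2 itself, which is Fitm2 (ENSMUSG00000048486) in the matrices and encodes a protein of the endoplasmic reticulum needed to form lipid droplets, was barely detected in mural cells. Over all of them it had 5 UMIs in 5 Fit2-WT cells and 6 UMIs in 4 Fit2-Mut cells, and in the unmixed cells 2 and 1 UMIs. These counts are too few to compare. Of the 24 genes of the lipid droplet list, 10 had at least 20 UMIs over all mural cells, with a median log2 ratio of -0.18. In Fit2-Mut 3 of them were at least 1.5-fold higher and 1 lower, beside 15.4% and 12% of all genes. Among the unmixed cells 3 were left, of which 0 were higher and 0 lower.

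Over all mural cells, 269 of 2781 genes with at least 50 UMIs were at least 1.5-fold higher in Fit2-Mut (9.67%) and 181 at least 1.5-fold lower (6.51%). This split depended on the scaling: with TMM factors it was 193 higher and 251 lower, and with median of ratios scaling 201 and 248. Among the 6342 genes with at least 20 UMIs, the minimum used for the lists, 974 (15.4%) were higher and 759 (12%) lower. In the unmixed cells, 84 of 1250 genes with at least 50 UMIs were higher (6.72%) and 105 lower (8.4%), so the balance of directions turned when the mixed cells were left out. Among their 3411 genes with at least 20 UMIs, 462 (13.5%) were higher and 472 (13.8%) lower.

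Genes singled out over all mural cells show what the mixed cells contribute. Kif21a, a kinesin, had 55 and 13 UMIs, a ratio of 0.314 (0.157 to 0.582), but 1 and 0 UMIs in unmixed cells. Sparc, a matrix glycoprotein, had a ratio of 1.59 (1.35 to 1.87) over all mural cells and 1.07 (0.852 to 1.35) in the unmixed ones. All 9 measured microglial genes were higher in Fit2-Mut over all mural cells, as were 10 of 11 astrocyte genes, beside the microglial cell and the 2 astrocyte-marked cells of that library. All 9 measured T cell and blood genes were lower, beside the red blood cell and T cell barcodes of Fit2-WT; Hba-a1, a haemoglobin chain, had 3805 UMIs, all in 1 cell, against 1 in Fit2-Mut. The median log2 ratios of these lists were 4.27 for microglia, 1.17 for astrocytes and -8.89 for T cells and blood (a count of 0 set at 3). The interferon response list had a median log2 ratio of 0.83 over all mural cells (9 genes, 5 higher, 0 lower) and -0.04 in unmixed cells (5 genes).

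Other genes of that ranking differed by a similar amount in the unmixed cells. Ano1, a calcium-activated chloride channel, had 76 and 111 UMIs, a ratio of 1.94 (1.44 to 2.63), and 1.78 (1.29 to 2.48) in unmixed cells. Camk2n1, an inhibitor of the calcium- and calmodulin-dependent kinase, had 31 and 61 UMIs, 2.62 (1.67 to 4.17), and 2.28 (1.20 to 4.45) in unmixed cells. Rapgef5 (2.11) and Kalrn (2.31), both nucleotide exchange factors of small GTPases, and Sptbn1 (1.63), a spectrin, were also higher, and at 2.04, 2.44 and 1.66 in unmixed cells. Kcnma1, the large-conductance calcium-activated potassium channel, was lower, with 47 and 11 UMIs and a ratio of 0.311 (0.145 to 0.609), and 0.391 (0.165 to 0.836) in unmixed cells. Ttll7 (0.478) and Immp2l (0.368) were lower as well.

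The contractile range held 69.7% (Fit2-WT) and 57.6% (Fit2-Mut) of unmixed UMIs, so ratios over both ranges also follow this makeup and are given next within each range. In the unmixed contractile range, 270 of 2005 genes with at least 20 UMIs were at least 1.5-fold higher in Fit2-Mut (13.5%) and 329 lower (16.4%). In the unmixed pericyte range, 190 of 1194 were higher (15.9%) and 207 lower (17.3%). The cells, 22 and 17 in the first and 22 and 22 in the second, are not replicates. These shares of all genes are the background against which the counts of each list are to be read.

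By its median the contractile apparatus list differed little between the libraries in the contractile range. Of 23 measured genes 2 were higher and 1 lower in Fit2-Mut, beside 13.5% and 16.4% of all genes. The median log2 ratio was 0.06 against 0.02 over all genes. The list includes Acta2, Tagln and Myh11, whose share sets the range. Acta2 had 2378 and 1615 UMIs, a ratio of 1.18 (1.11 to 1.26). Tagln was at 1.01 (0.935 to 1.10), Myl9 at 0.987 (0.901 to 1.08), Tpm1 at 1.0 (0.887 to 1.13) and Des at 0.887 (0.657 to 1.19), so for these 4 genes the interval held 1. Myh11, the smooth muscle myosin heavy chain, had 681 and 312 UMIs, a ratio of 0.795 (0.693 to 0.911). Mylk, also on the list, had 377 and 170 UMIs (0.783, 0.649 to 0.941).

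Tpm2 (1.20), Mustn1 (1.45, 1.14 to 1.83) and Pln (1.48, 1.17 to 1.88) were somewhat higher. The genes past 1.5-fold were Cnn1, or calponin, with 33 UMIs in 11 cells and 30 in 6 cells, Pdlim7 with 17 and 16 UMIs, and Synpo2 with 44 and 15. Their intervals all held 1. Dmd, which encodes dystrophin and lies outside the list, had 241 UMIs in 22 of 22 Fit2-WT cells and 54 in 14 of 17 Fit2-Mut cells. Its ratio was 0.389 (0.284 to 0.524), and 0.466 when cells were weighted equally. In endothelial cells Dmd was at 1.61 (1.29 to 2.01), and the difference was not tested.

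Immediate early genes, which encode transcription factors and regulators induced within minutes by growth factors, stretch or cell dissociation, mostly lay below 1 in the contractile range. Of 19 measured genes 7 were lower, beside 16.4% of all genes, and 3 were higher, with a median log2 ratio of -0.26. Fos had 712 UMIs in 16 of 22 Fit2-WT cells and 247 in 8 of 17 Fit2-Mut cells, a ratio of 0.602 (0.519 to 0.697). A single Fit2-Mut cell held 31.2% of those UMIs, and without the top cell of each library the ratio was 0.511.

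The other members divided by gene. Klf2, a factor known for its response to flow, had 191 and 66 UMIs (0.60, 0.446 to 0.797), and Dusp1, a phosphatase of MAP kinases, 165 and 55 (0.579, 0.418 to 0.790). Egr1 had 78 and 22 UMIs (0.490), Nr4a1 49 and 15 (0.531), Zfp36, which destabilises mRNAs of cytokines, 66 and 16 (0.421), and Klf4 24 and 1 (0.0723, 0.00176 to 0.444). Jun (1.03, 0.783 to 1.34), Junb (0.839, 0.667 to 1.05) and Atf3 (0.753, 0.527 to 1.06) had intervals that held 1. Ier2 (2.02, 1.21 to 3.37) and Hsp90aa1 (1.85, 1.22 to 2.81), a chaperone, were higher, and Hspb1, a small heat shock protein, was at 1.43 (1.15 to 1.76), so the list did not move as 1 block.

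Few cells carried these transcripts in Fit2-Mut. The top cell held 45.5% of Klf2, 40.0% of Dusp1 and 59.1% of Egr1 UMIs there, and without the top cells the ratios were 0.427, 0.417 and 0.289. At 1000 UMIs a cell, Fos was found in 16 of 22 Fit2-WT (72.7%, 49.8 to 89.3%) and 7 of 17 Fit2-Mut cells (41.2%, 18.4 to 67.1%), against 5.92% and 9.89% of endothelial cells. The mural intervals overlap. Unthinned, the Fit2-Mut share was 47.1%.

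Endothelial cells of the same libraries lay on the other side of 1 for several of these genes. There Fos had 347 and 787 UMIs, a ratio of 2.26 (1.99 to 2.57), and Egr1 was at 2.15, Atf3 at 3.73, Dusp1 at 1.40 and Klf2 at 1.22, with a list median log2 ratio of 0.28 over 23 genes. The difference between contractile range and endothelial ratios was not tested. In the pericyte range the list was scarcely present, with 3 and 0 Fos UMIs and 3 of 24 genes at 20 UMIs or more.

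**Figure D4:**
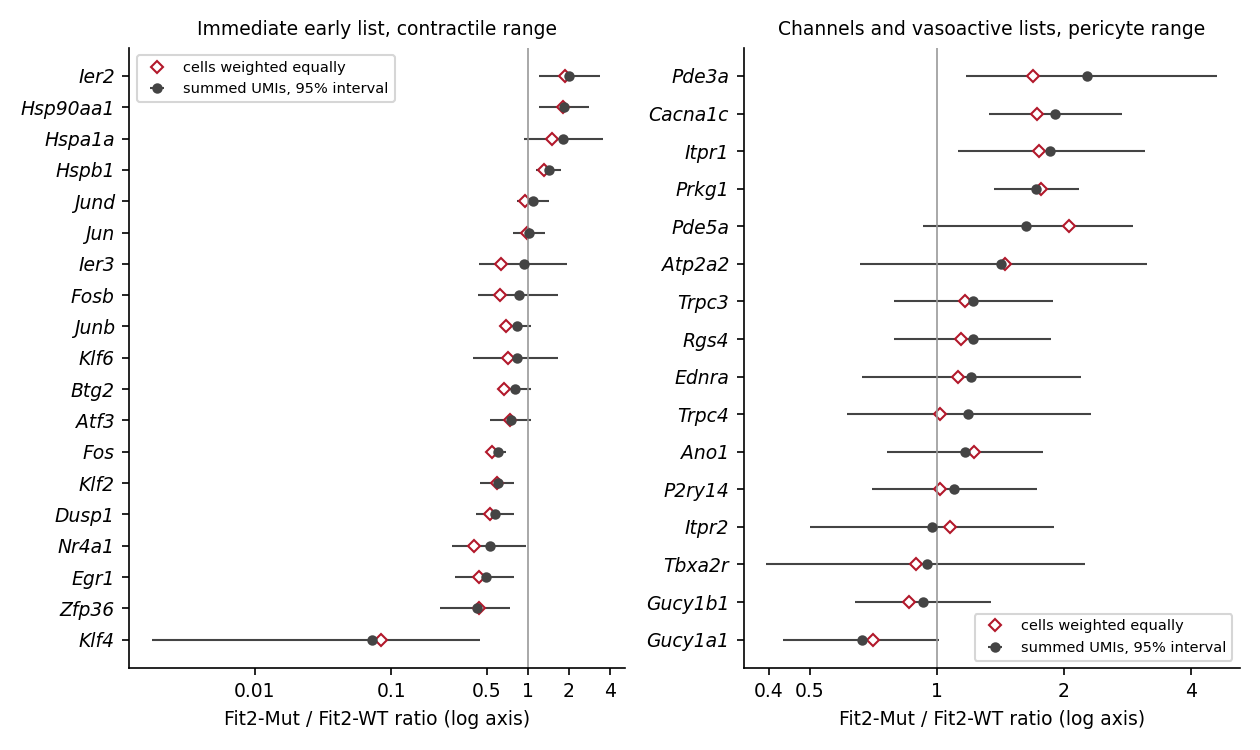
Ratio of Fit2-Mut to Fit2-WT on a logarithmic axis, with its exact 95% interval (dots) and with cells weighted equally (diamonds), for 19 immediate early genes in the unmixed contractile range (left) and 16 channel and vasoactive genes in the unmixed pericyte range (right). On the left the genes run from Klf4 at 0.0723 to Ier2 at 2.02, and on the right most lie above 1.

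Regulators outside that list were also lower in the Fit2-Mut contractile range. Errfi1, an inhibitor of the epidermal growth factor receptor, had 124 UMIs in 17 cells and 23 in 7, a ratio of 0.322 (0.197 to 0.505), against 0.967 (0.575 to 1.62) in endothelial cells. Zfp36l1, an mRNA-binding relative of Zfp36, had 107 and 22 UMIs (0.357, 0.215 to 0.569). Both kept a ratio under 0.4 when cells were weighted equally.

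Notch3 is the main receptor of Notch signalling in mural cells, and Hes and Hey genes are targets of the pathway. In the contractile range 3 of 8 measured genes of this list were lower and 1 higher (median log2 ratio -0.24). Of all genes there, 16.4% were lower and 13.5% higher. The target Hes1 had 82 UMIs in 17 cells and 16 in 6, a ratio of 0.339 (0.185 to 0.583). In endothelial cells Hes1 was also lower, at 0.773 (0.643 to 0.929), and the difference was not tested. Hey2 (28 and 9 UMIs) and Heyl (18 and 4) were also past 1.5-fold with intervals that held 1, while the receptor Notch3 had 88 and 42 UMIs (0.829, 0.560 to 1.21) and the ligand Jag1 was at 1.57 (0.799 to 3.07). In the pericyte range Hey2 had 16 and 5 UMIs (0.321, 0.0918 to 0.916), Notch3 was at 0.994 (0.692 to 1.43), and Maml2, a coactivator, had 36 and 59 UMIs (1.68, 1.09 to 2.62). Of the targets of BMP signalling, Id1 had 28 and 5 UMIs in the contractile range (0.310, 0.0935 to 0.813) and Id3 128 and 50 (0.678), with 60% of the Fit2-Mut UMIs of each in 1 cell.

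In the contractile range a few receptors and channels were lower, to be read beside 16.4% of all genes lower and 13.5% higher. Npy1r, the receptor through which neuropeptide Y narrows vessels, had 59 UMIs in 19 of 22 Fit2-WT cells and 10 UMIs in 4 of 17 Fit2-Mut cells, a ratio of 0.294 (0.134 to 0.580), and 50% of the Fit2-Mut UMIs lay in 1 cell. The vasoactive list had 2 of 11 genes lower and 0 higher, with a median log2 ratio of -0.30; the other was the endothelin receptor Ednra, at 0.657 (0.328 to 1.24). Among channels, 2 of 9 were lower and 1 higher (median -0.15).

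Itpr1, the calcium release channel of the endoplasmic reticulum, had 59 and 19 UMIs (0.559, 0.315 to 0.951) in the contractile range, and Kcnab1, a potassium channel subunit outside the list, 158 and 38 (0.418, 0.285 to 0.598). A single Fit2-WT cell held 27.8% of the Kcnab1 UMIs, and with equal weights the ratio was 0.611. Ano1 was higher, with 26 UMIs in 12 cells and 37 in 9 (2.47, 1.46 to 4.25). Ramp1, the partner of the receptor for calcitonin gene-related peptide, was also higher, at 2.19 (1.22 to 3.96). In the pericyte range Ano1 had 44 and 50 UMIs, and its interval held 1 (1.17, 0.762 to 1.79).

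In the pericyte range the medians of both lists lay above 0, and the difference between ranges was not tested. Of 10 vasoactive genes 3 were higher and 0 lower (median log2 ratio 0.28), beside 15.9% and 17.3% of all genes. Of 9 channels 2 were higher and 1, Kcnj8, lower (0.25), against -0.02 over all genes. These counts and medians include genes of the rule, which the figure leaves out. The vasoactive list holds Rgs5 in both ranges, and the channel list holds Kcnj8 and Abcc9 in the pericyte range. Prkg1, the kinase activated by cyclic GMP, had 121 UMIs in 21 of 22 Fit2-WT cells and 203 in 22 of 22 Fit2-Mut cells, a ratio of 1.72 (1.37 to 2.17). It was 1.76 with cells weighted equally. In endothelial cells of the same libraries the list medians were 0.22 (11 genes) and 0.35 (12 genes), and Prkg1 was at 1.16 (1.03 to 1.31). Cacna1c, the pore of the L-type calcium channel, had 49 UMIs in 18 cells and 91 in 20 (1.90, 1.33 to 2.75), and in endothelial cells 8 and 32 UMIs (3.99, 1.80 to 10.0).

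Itpr1 had 26 and 47 UMIs in the pericyte range (1.85, 1.12 to 3.12), opposite in direction to its contractile range ratio, and was at 0.968 (0.776 to 1.21) in endothelial cells; these differences were not tested. Pde3a had 14 UMIs in 5 cells and 31 in 13 (2.27, 1.17 to 4.62), and Pde5a, the phosphodiesterase of cyclic GMP, 22 and 35 (1.63, 0.931 to 2.92). The subunits of the nitric oxide receptor guanylate cyclase were at 0.667 (Gucy1a1, 0.434 to 1.01) and 0.930 (Gucy1b1, 0.640 to 1.35). Kcnj8, the pore of the pericyte potassium channel, had 66 UMIs in 17 cells and 41 in 13, a ratio of 0.637 (0.421 to 0.955), and its partner Abcc9 104 and 91 UMIs, 0.897 (0.670 to 1.20).

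Pericyte identity genes were mostly close between the libraries, with 0 of 11 higher and 1 lower in the pericyte range (median log2 ratio 0.21). Of all genes there, 15.9% were higher and 17.3% lower. Vtn had 1136 and 833 UMIs in 22 of 22 cells of each library, a ratio of 0.752 (0.687 to 0.823), and Atp13a5 162 and 215 UMIs (1.36, 1.10 to 1.68). Pdgfrb, the receptor that recruits pericytes to vessels, had 90 and 105 UMIs (1.20, 0.894 to 1.60), and Cspg4, the NG2 proteoglycan, 41 and 51 (1.28, 0.829 to 1.97). The gene past 1.5-fold was Art3, with 50 and 31 UMIs (0.636, 0.393 to 1.02). Rgs5 had 356 and 458 UMIs (1.32, 1.15 to 1.52). The cells were selected on Rgs5, Kcnj8, Abcc9, Acta2, Tagln and Myh11, so their ratios are a description of the cells chosen.

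Other genes of the pericyte range stood farther from 1. Ptn had 618 and 407 UMIs (0.675, 0.595 to 0.767). Jund, a partner of Fos, had 44 UMIs in 12 cells and 7 in 6 (0.163, 0.0620 to 0.365), and was at 1.09 in the contractile range. Rarres2, which encodes the secreted protein chemerin, had 71 UMIs in 20 cells and 28 in 13 (0.404, 0.251 to 0.635). It is also on the choroid plexus and ependyma list, whose 2 measured genes were at 0.404 and 0.798 in this range. The part of free RNA in it was not tested. Cd63, a membrane protein of late endosomes, had 75 and 33 UMIs (0.451, 0.290 to 0.688) and Ubb, a ubiquitin gene, 118 and 68 (0.591, 0.432 to 0.803). Fry, higher at 1.64 (1.24 to 2.19), had 83 and 133 UMIs. The chemokine Ccl19 had 53 and 6 UMIs, but 1 Fit2-WT cell held 90.6% of its UMIs and only 1 Fit2-Mut cell had any.

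Transporters known from brain pericytes were near 1. The transporter list, which holds Abcc9 of the rule, had 0 of 8 genes higher and 1 lower in the pericyte range (median log2 ratio -0.09). Of all genes there, 15.9% were higher and 17.3% lower. Slc6a20a had 66 and 63 UMIs (0.979, 0.682 to 1.40). Enpep, a surface aminopeptidase, had 22 and 19 UMIs (0.886, 0.453 to 1.71).

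Matrix genes, which build the basement membrane around pericytes, had median log2 ratios of -0.01 in the pericyte and 0.06 in the contractile range. In the pericyte range 2 of 15 were lower and 0 higher, beside 17.3% and 15.9% of all genes. The lower ones were Nid1 (nidogen, 31 and 16 UMIs, 0.529, 0.270 to 0.998) and Col4a2 (23 and 12 UMIs, 0.535). In the contractile range 3 of 18 were lower and 2 higher, beside 16.4% and 13.5% of all genes. There Itga1, a collagen receptor subunit, had 79 and 26 UMIs (0.571, 0.352 to 0.900). Mgp, an inhibitor of calcification, had 134 and 125 UMIs (1.62, 1.26 to 2.08), of which 1 cell held 47.8% in Fit2-WT and 1 cell 52.0% in Fit2-Mut.

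Of the genes of amyloid production and clearance, 3 of 6 were higher and 1 lower in the pericyte range (median log2 ratio 0.33). Of all genes there, 15.9% were higher and 17.3% lower. In the contractile range 0 of 5 were higher and 1 lower (-0.20), beside 13.5% and 16.4% of all genes. The lower gene of the pericyte range was at 0.586, and the intervals of the 3 higher ones held 1. App, the precursor of amyloid beta that the knock-in alters, had 23 UMIs in 11 cells and 37 in 16 (1.65, 0.955 to 2.91), and Picalm, a clathrin adaptor, 11 and 19 (1.77, 0.801 to 4.12). Apoe, the lipid carrier, was at 1.54 (0.893 to 2.70) in the pericyte range. It was at 0.340 in the contractile range, where 1 Fit2-WT cell held 76.5% of its UMIs, and at 1.17 without the top cells.

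Mural transcription factors had a median log2 ratio of 0.08 in the pericyte range (12 genes, 2 higher and 2 lower). In the contractile range it was -0.17 (17 genes, 2 higher and 4 lower). Of all genes, 15.9% were higher and 17.3% lower in the pericyte range, and 13.5% and 16.4% in the contractile range. Tbx2 was at 2.27 (1.04 to 5.08) in the contractile range on 13 and 17 UMIs. Nuclear oxidative phosphorylation genes had a median log2 ratio of -0.26 in the pericyte range, where 2 of 17 were higher and 1 lower, and 0.12 in the contractile range, where 5 of 31 were higher and 2 lower. Uqcrc2, a core subunit of complex III, had 19 UMIs in 14 cells and 32 in 13 there (2.92, 1.61 to 5.46). Hypoxia and glycolysis genes were at -0.16 (6 genes) and -0.01 (11 genes).

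Ligand lists of vessel growth rested on few UMIs. PDGF signalling is a pathway through which endothelial cells recruit mural cells. Its list had a median log2 ratio of 0.36 over all mural cells (8 genes, 1 higher and 0 lower). The median was 0.35 in unmixed cells (6 genes, 3 higher and 0 lower) and 0.13 in the contractile range (5 genes). Of all genes, 15.4% were higher and 12% lower over all mural cells, and 13.5% and 13.8% in unmixed cells. Pdgfa had 40 and 27 UMIs in unmixed cells, a ratio of 0.968 (0.571 to 1.62). The angiopoietin and VEGF list was at 0.65 over all mural cells (6 genes, 4 higher) and 0.43 in unmixed cells (5 genes, 2 higher), beside 15.4% and 13.5% of all genes that were higher. Angpt1, the ligand that steadies the endothelium, had 33 and 27 UMIs in unmixed cells (1.17, 0.679 to 2.01), and Flt1, an endothelial receptor for VEGF, 16 and 17. The TGF-beta and BMP list was at 0.18 over all mural cells (20 genes) and -0.25 in the contractile range (8 genes).

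Measures of the cells themselves also differed between the libraries. Malat1, a nuclear RNA, was at 1.17 (1.12 to 1.22) in the pericyte range and 0.643 (0.613 to 0.673) in the contractile range. Contractile range cells had fewer UMIs in Fit2-Mut, and the mitochondrial share was higher in Fit2-Mut in both ranges. Astrocyte markers in the pericyte range came to 6 and 21 UMIs, 12 of the Fit2-Mut UMIs in 1 cell, and endothelial markers outside the rule to 15 and 19. The part of these in the ratios above was not tested.

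**Figure D5:**
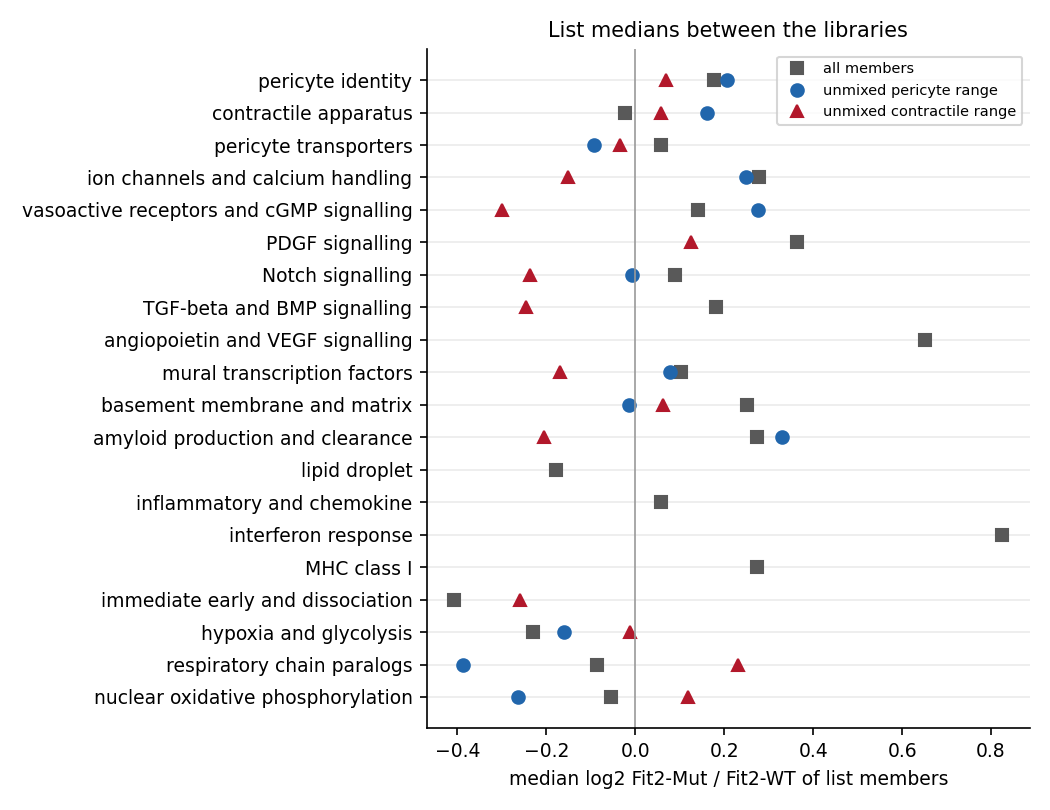
Median log2 ratio of Fit2-Mut to Fit2-WT for each gene list of mural biology with at least 5 measured genes (lists of other cell types are not drawn), over all mural cells (squares), unmixed pericyte range cells (circles) and unmixed contractile range cells (triangles). Most medians lie within 0.5 of 0, while the interferon list lies at 0.83 over all mural cells.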

How the data were processed

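The authors deposited matrices of whole-number UMI counts for every barcode, with no normalization, 52491901 counts for Fit2-WT and 63234140 for Fit2-Mut over 32285 genes. They were made with Cell Ranger on mm10. The file headers name its version as 7.1.0, and the submitters' processing notes give 7.0.0. Which gene annotation was used and whether intronic reads were counted is not given in the sources used here. The chemistry counts transcripts at their 3' end, so gene length was not corrected.

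The members and the gene lists were chosen with earlier results of these data known. Counts were summed over the cells of a set and divided by its total (CPM). Ratios carry exact conditional 95% intervals, levels Poisson intervals and shares Clopper-Pearson intervals, and each UMI was taken as independent. No p-value was computed. Called means at least 1.5-fold, among genes reaching 50 UMIs over both libraries (20 for lists and within ranges), and a count of 0 enters list medians as 3 counts. Scrublet in Scanpy 1.11.5 marked 124 and 155 passing barcodes as doublets, which stayed in. Only TMM factors came from edgeR 4.0.16. Python 3.11.15, NumPy 2.4.6 and SciPy 1.17.1 were used, and the computation was tested on simulated data.

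Named genes were those of the rule, list genes past 1.5-fold or most abundant, the 10 highest and lowest genes by the interval bound nearest to 1 (with a UMI in at least 10% of the higher library's cells and at most 25% of its UMIs in 1 cell), the 30 leading identity genes and the 15 leading genes of each range (ranked with counts under 3 set at 3). The ranking within unmixed cells and within ranges was added after seeing the data, and pathway partners such as Notch3, Jag1, Gucy1b1, Ednra and Enpep were chosen after their values were seen. Endothelial comparison cells had at least 5 UMIs of Cldn5, Cdh5 and Pecam1 and at most 4 of the 8 genes. Of 30 lists, those with fewer than 5 measured genes are given no median. The RefSeq promoter table had an entry for 21 of 24 contractile and 10 of 15 pericyte identity genes.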

Additional observations from a re-analysis of the deposited data

How the results depend on the processing

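There was 1 library a genotype, so none was left out. A list with fewer than 5 measured genes under an alternative has no value. The ratio of mural shares stayed within its counting interval in 9 of 9 alternatives, though per endothelial cell it was 1.06, on the other side of 1. That of the contractile range did so in 10 of 10. Depth limits the rest, since the median unmixed pericyte range cell held 2591.5 (Fit2-WT) and 2420 UMIs (Fit2-Mut).

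The counts of genes past 1.5-fold depended on which cells and genes entered; the numbers of genes tested also changed. Against 269 higher genes, an 8-gene sum of at least 20 gave 167, a sum of at least 0.5% of UMIs 113, and leaving out the 5 deepest cells of each library 139. Higher and lower genes numbered 84 and 105 in unmixed cells, 29 and 35 in the unmixed pericyte range, 54 and 78 in the unmixed contractile range, 136 and 80 in the whole pericyte range, 23 and 22 with cells thinned to 1000 UMIs, 63 and 52 with at least 100 UMIs, and 2753 and 2632 with 1 UMI in each library. Weighting cells equally gave 321 lower genes.

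Of 434 list medians under alternatives, 420 stayed within an interval around the value over all mural cells, 13 moved and 1 reversed. That interval is the median of the single genes' bounds, for example -0.72 to 1.06 for the 20 TGF-beta and BMP genes. It is about as wide as the interval of 1 gene, so staying inside it says little. The interferon list turned to -0.039 in unmixed cells. Respiratory chain paralogs moved to 0.23 in the unmixed contractile range, and in the whole pericyte range the contractile apparatus moved to 0.59 and the vasoactive list to 0.77. Of 370 values of named genes, 324 stayed within the counting interval of the value over all mural cells, 37 moved and 9 reversed. Kif21a turned to 1.69 with the 0.5% limit, Sparc to 0.732 and Ddx42 to 0.496 in the unmixed contractile range. Errfi1 and Kcnab1 turned to 4.10 in the unmixed pericyte range, on 1 and 4 UMIs each, and to 6.02 in the whole of it, and Hes1 to 1.14 and 1.67. The cause was not tested. TMM scaling lowered all log2 ratios by 0.10. The unmixed cells and ranges were added after seeing the data.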
